A study of Homo sapiens with 10 samples.

Results

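Genes for endoplasmic reticulum (ER) chaperones and ER-associated degradation were examined in U2OS cells given the CDK4 and CDK6 inhibitor PD0332991. The set was named by function, as 32 genes of the unfolded protein response, its chaperones and its degradation machinery. Each gene was represented by the probe set that carried its symbol alone. That left 29 measured genes out of 14232 genes on single-symbol probe sets. HSP90B1, an ER paralogue of HSP90, and PDIA3, a disulfide isomerase that works with the lectin chaperones, were represented by probe sets shared with other symbols. Those genes and P4HB, a further disulfide isomerase, were not analysed here.

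U2OS is a human osteosarcoma line. The 5 treated cultures received PD0332991 (palbociclib) for 4 h and the 5 controls received the solvent DMSO for the same time. All 10 cultures had grown beforehand for 30 h in McCoy medium with 10% serum after plating at 25% density. The labels print the dose as 1 mM, which is doubtful because culture doses of this compound are usually micromolar, and the arrays hold nothing to check it with. RNA was read on Affymetrix exon arrays summarised per gene, and every level below is a log2 value. Replicates 1 to 3 of both treatments bear array names of one set (set 1) and replicates 4 and 5 those of another (set 2). The labels call the replicates biological without saying how the cultures were separated. Levels from bulk RNA cannot tell a change in the number of expressing cells from a change in RNA per cell.

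Proteins that enter the ER fold with the help of the chaperone BiP (HSPA5), its DNAJ partners, the lectins calnexin and calreticulin, and disulfide isomerases. When unfolded protein builds up, the sensors IRE1 (ERN1), PERK (EIF2AK3) and ATF6 start the unfolded protein response. IRE1 splices the XBP1 mRNA, ATF6 is released as a transcription factor, and both raise chaperone and degradation genes. Proteins that fail to fold are recognised by EDEM and OS9, passed through a channel built of SEL1L, SYVN1, derlins and HERPUD1, and degraded by the proteasome. Gene-level probe sets do not separate spliced from unspliced XBP1 mRNA or report the processing of ATF6 protein.

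Treated arrays differed from control arrays in genes that are neither among the 29 measured genes nor in the further lists given below. CCNE2, which encodes cyclin E2, fell by 1.89 on the log2 scale, and DDIT4, which encodes an mTORC1 inhibitor, rose by 1.28 (limma adjusted p = 0.00911 and 0.00177). E2F2, an E2F transcription factor, fell by 1.01 (limma adjusted p = 0.00289). None of these 3 genes overlapped between the treatments. CCNE2 and DDIT4 had the lowest and highest differences of all single-symbol genes, so these genes are no independent check of the treatment. Every treated array lay above the controls of its own set for 0.814% of probe sets and below them for 1.45%. Of 21980 probe sets, 2 (0.00910%) were called higher and 9 (0.0409%) lower at an adjusted p under 0.05. Array medians were 6.95 to 7.06 and interquartile ranges 3.18 to 3.68. DMSO replicate 1 stood apart, with the narrowest range and a median correlation of 0.9636 with the other arrays, against 0.9819 to 0.9866 for the rest. Of the mesenchymal markers, COL1A1, SPARC, VIM and CDH2 were bright (medians 11.17 to 12.03), while RUNX2, COL1A2 and TWIST1 were at 7.68, 6.57 and 6.15. Of the epithelial markers, EPCAM and CDH1 were dim (5.78 and 5.46), KRT19 and CLDN4 lay near the array medians (7.02 and 6.98) and KRT18 was bright (10.90). The blood markers PTPRC, HBB, CD3E and CD4 were dim, at 3.81, 4.89, 4.91 and 5.09. Mean levels over the 7 mesenchymal markers were 9.48 to 9.85 on DMSO arrays and 9.57 to 9.79 on treated arrays. The 5 epithelial markers gave 6.93 to 7.47 and 7.14 to 7.54, and the 4 measured blood markers gave 4.60 to 4.95 and 4.49 to 4.91.

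No ER chaperone or degradation gene passed the test after 4 h of PD0332991. Of the 29 measured genes, 0 were called higher and 0 lower by limma with array set as a covariate (smallest adjusted p = 0.818), where 0.00910% and 0.0409% of all probe sets were called. At an unadjusted p under 0.05, 3 were higher (HERPUD1, XBP1 and EDEM3) and 0 were lower, where 1.41% of all probe sets were higher and 2.76% lower. Differences ran from -0.22 for SDF2L1 to 0.34 for HERPUD1. The 95% confidence interval lay within a 1.5-fold change in both directions for 23 of the 29 genes, and the other 6 were EDEM2, EDEM3, DERL1, CANX, DNAJB11 and DNAJC10. Without DMSO replicate 1 the interval lay within a 1.5-fold change for all 29.

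The differences leaned upward without any call. Positive differences were found for 22 of the 29 genes (75.9%), against 44.7% of all single-symbol genes, and the medians were 0.09 and -0.02. Without DMSO replicate 1 the counts were 23 of 29 (79.3%) against 53.2%, and the medians were 0.06 and 0.01. In this and later comparisons of signs with all genes, levels were not matched. The mean over the 29 genes was 9.17 to 9.48 on the arrays, where array medians were 6.95 to 7.06. With 5 arrays per treatment the precision is limited, and these shares are given as descriptions without a test.

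**Figure D1:**
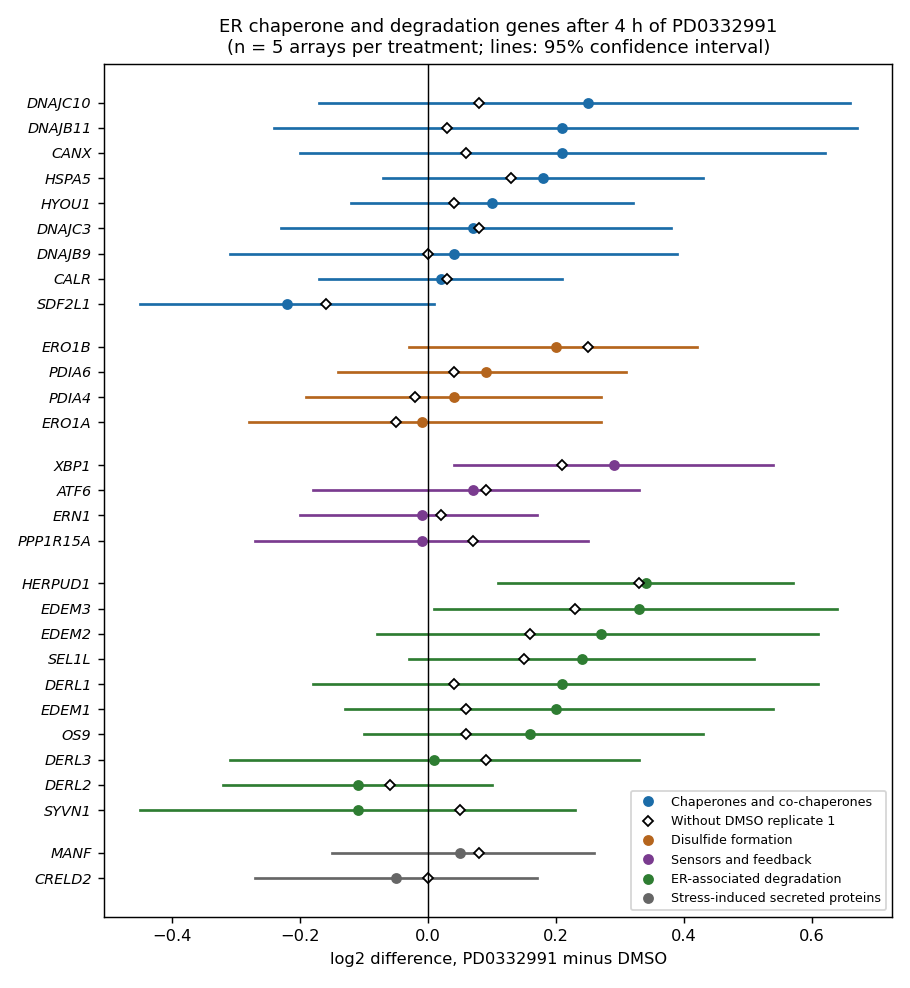
Difference in log2 expression between PD0332991 and DMSO for the 29 measured genes, grouped by role. Filled points are the fitted differences with 95% confidence intervals (n = 5 arrays per treatment), and open diamonds are the values without DMSO replicate 1. Intervals of HERPUD1, XBP1 and EDEM3 stay above 0, and no gene passed the adjusted threshold.

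The promoters of 4 genes are printed to show the elements through which this response is known to act. ATF6 and XBP1 bind short ER stress response elements upstream of chaperone and degradation genes. HERPUD1 and XBP1 were the genes with the smallest p, HSPA5 is the standard reporter of the response, and SDF2L1 had the most negative difference. The 250 bases before the RefSeq transcript start are printed 5′ to 3′ on the gene's strand (GRCh38.p14), with matches to an element in capitals. The windows are chr16:56931892-56932141 (plus strand) for HERPUD1, chr22:28800570-28800819 (minus strand) for XBP1, chr9:125241344-125241593 (minus strand) for HSPA5 and chr22:21642052-21642301 (plus strand) for SDF2L1.
HERPUD1: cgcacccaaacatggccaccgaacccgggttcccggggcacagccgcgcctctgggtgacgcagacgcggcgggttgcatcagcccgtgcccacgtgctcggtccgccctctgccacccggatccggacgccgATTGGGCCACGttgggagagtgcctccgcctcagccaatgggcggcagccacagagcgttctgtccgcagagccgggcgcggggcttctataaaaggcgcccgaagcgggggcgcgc
XBP1: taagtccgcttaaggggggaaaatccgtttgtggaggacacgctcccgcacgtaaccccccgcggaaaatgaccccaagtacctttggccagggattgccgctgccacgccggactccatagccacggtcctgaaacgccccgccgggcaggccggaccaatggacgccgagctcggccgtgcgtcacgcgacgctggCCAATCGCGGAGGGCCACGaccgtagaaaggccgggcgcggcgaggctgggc
HSPA5: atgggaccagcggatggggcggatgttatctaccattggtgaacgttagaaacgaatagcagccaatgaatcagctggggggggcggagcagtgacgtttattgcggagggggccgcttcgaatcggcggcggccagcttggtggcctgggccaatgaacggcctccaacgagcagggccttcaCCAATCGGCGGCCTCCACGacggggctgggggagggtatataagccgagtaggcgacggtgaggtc
SDF2L1: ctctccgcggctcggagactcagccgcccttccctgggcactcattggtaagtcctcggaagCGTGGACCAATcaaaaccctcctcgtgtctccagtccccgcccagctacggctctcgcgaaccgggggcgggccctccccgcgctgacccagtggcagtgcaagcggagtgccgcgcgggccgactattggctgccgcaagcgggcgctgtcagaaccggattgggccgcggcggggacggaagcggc

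The elements searched on both strands were ERSE (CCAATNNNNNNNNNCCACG), ERSE-II (ATTGGNCCACG) and UPRE (TGACGTGG). Only exact matches were counted, so copies with a differing base were not searched and stay in lower case above. XBP1 and HSPA5 hold ERSE in the forward direction, with first bases at -52 and -66 from the transcript start. HERPUD1 holds ERSE-II from -117, and SDF2L1 holds ERSE-II in the reverse direction from -188. Over the full RefSeq windows of 300 bases (250 before and 50 after the start), an element was found for 12 of the 29 listed genes that have a window, against 301 of 35116 windows (0.857%). ERSE was found for 8 of these genes and in 0.0769% of windows, ERSE-II for 3 and in 0.0541%, and UPRE for 2 and in 0.729%. HYOU1 holds UPRE and ERSE-II matches that overlap. Some genes have several windows. ERSE was described from promoters of ER chaperone genes, HSPA5 among them, so its presence here is known background.

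The differences of genes with and without an element overlapped. Among measured genes with a window, the 11 with a match had differences from -0.22 to 0.34 with a median of 0.18, and 9 were positive. The 16 without a match ran from -0.11 to 0.33 with a median of 0.06, and 11 were positive. Without DMSO replicate 1, CANX was the middle gene of the 11 with a match, at 0.06. EDEM1 and OS9 were then the middle pair of the 16 without a match, at 0.06 each. The difference between the medians was not tested. The pair with ERSE-II as the only exact match, HERPUD1 and SDF2L1, lay at opposite ends of all 29 genes.

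Of 10 measured degradation genes, 8 had positive differences and 0 were called. Their median was 0.21, and 0.07 without DMSO replicate 1. HERPUD1 encodes a membrane protein that organises the degradation complex. Its log2 level was 10.29, 10.30, 10.36, 10.35 and 10.45 in DMSO replicates 1 to 5 and 10.77, 10.37, 10.83, 10.70 and 10.77 in the treated replicates. Treated replicate 2 was within the range of the controls and only just above those of its own set, while the other treated arrays lay above all 5 controls. The difference was 0.34 ± 0.10 (SE, n = 5), or 1.27-fold with a 95% confidence interval of 1.08 to 1.49 (limma adjusted p = 0.818). It was 0.34 in each array set and 0.33 without DMSO replicate 1.

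EDEM3, a mannosidase that marks misfolded glycoproteins for removal, had control levels of 7.56, 7.85, 8.11, 7.47 and 7.24. Its treated levels were 8.22, 8.10, 8.52, 7.34 and 7.68. The groups overlapped, and the arrays of set 2 were low in both treatments. The difference was 0.33 (95% confidence interval 0.01 to 0.64, limma adjusted p = 1.00), and 0.23 without DMSO replicate 1. SEL1L, the scaffold of the ubiquitin ligase that removes misfolded proteins, had control levels of 9.45, 9.81, 9.95, 9.76 and 9.57. Its treated levels were 9.95, 9.88, 10.22, 9.89 and 9.79, again overlapping with the controls (difference 0.24, limma adjusted p = 1.00, and 0.15 without DMSO replicate 1).

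EDEM2, which starts the trimming of mannose, was at 7.20, 8.0, 7.44, 7.95 and 7.98 in DMSO and at 7.90, 8.04, 7.61, 8.08 and 8.26 after treatment. DMSO replicates 1 and 3 were the low arrays, and the difference was 0.27 (0.16 without DMSO replicate 1). EDEM1, a lectin-like factor that hands substrates to the channel, was at 8.61, 9.25, 9.37, 9.56 and 9.45 in DMSO and at 9.33, 9.33, 9.53, 9.47 and 9.62 after treatment. OS9, a lectin that reads trimmed glycans, was at 9.64, 10.15, 10.15, 10.34 and 10.37 in DMSO and at 10.24, 10.25, 10.24, 10.37 and 10.36 after treatment. For EDEM1 and OS9 DMSO replicate 1 was the lowest of all 10 arrays by a wide gap, and the differences of 0.20 and 0.16 were 0.06 each without it.

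The derlins, which form part of the channel, did not share a direction. DERL1 had a difference of 0.21 (0.04 without DMSO replicate 1) and DERL3 0.01. DERL2 was at 9.33, 9.10, 9.06, 9.54 and 9.56 in DMSO and at 9.06, 8.95, 8.95, 9.43 and 9.61 after treatment, a difference of -0.11. SYVN1, the ubiquitin ligase HRD1, had -0.11, and 0.05 without DMSO replicate 1, where it was highest.

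Of the 4 sensors and feedback genes, 2 had positive differences, the median was 0.03 and 0 were called. All 4 were positive without DMSO replicate 1, with a median of 0.08. XBP1 encodes the transcription factor made after IRE1 splicing. It was at 10.01, 10.47, 10.32, 10.30 and 10.43 in DMSO and at 10.73, 10.57, 10.61, 10.47 and 10.60 after treatment. Each treated array lay above every control array of its own set. DMSO replicate 1 was the lowest array, at -0.37 from the median of the other controls. The difference was 0.29 ± 0.11 (SE, n = 5), or 1.22-fold (1.03 to 1.45, limma adjusted p = 1.00), and 0.21 (0.02 to 0.39) without that array.

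ATF6, the membrane-bound sensor and transcription factor, was at 9.90, 9.76, 9.88, 9.45 and 9.49 in DMSO and at 9.90, 9.66, 10.19, 9.41 and 9.70 after treatment. ERN1, which encodes IRE1, was at 7.09, 6.90, 6.89, 7.05 and 7.06 in DMSO and at 6.90, 6.91, 6.95, 7.15 and 7.0 after treatment. PPP1R15A encodes GADD34, which restores translation after PERK has blocked it. It was at 8.56, 8.04, 8.13, 8.38 and 8.39 in DMSO and at 8.25, 8.17, 8.22, 8.56 and 8.24 after treatment. The groups overlapped for all 3 genes, and the differences were 0.07 for ATF6 (-0.18 to 0.33), -0.01 for ERN1 (-0.20 to 0.17) and -0.01 for PPP1R15A (-0.27 to 0.25).

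**Figure D2:**
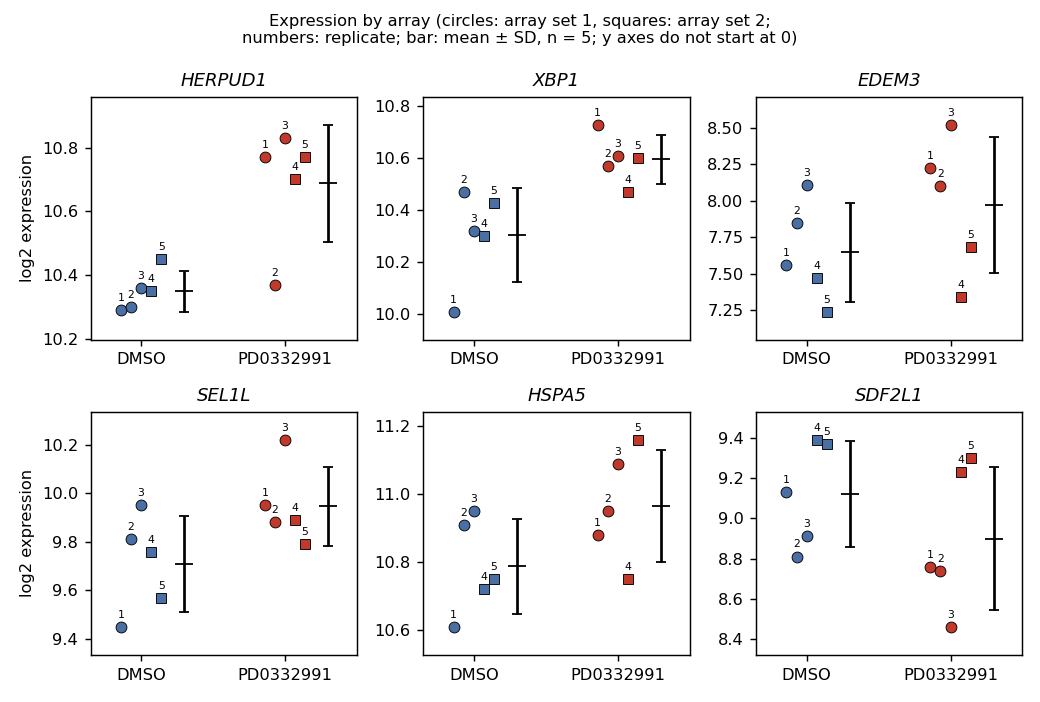
Log2 expression of 6 genes on each array, with the replicate number beside each point, circles for array set 1, squares for array set 2 and bars for mean ± SD (n = 5). HERPUD1 shows 4 treated arrays above all controls and treated replicate 2 at 10.37, and DMSO replicate 1 is the lowest point for XBP1, SEL1L and HSPA5.

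The chaperones and co-chaperones gave 8 positive differences of 9 measured, with a median of 0.10, and 0 calls. Without DMSO replicate 1 the median was 0.04 and 7 were positive. HSPA5, or BiP, the main ER chaperone of the HSP70 family, was at 10.61, 10.91, 10.95, 10.72 and 10.75 in DMSO. It was at 10.88, 10.95, 11.09, 10.75 and 11.16 after treatment. The groups overlapped, with the lowest value in DMSO replicate 1 and the highest in treated replicate 5. The difference was 0.18, or 1.13-fold (0.953 to 1.35, limma adjusted p = 1.00), and 0.13 without DMSO replicate 1.

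DNAJC10, a reductase that works with BiP, was at 9.70, 10.47, 10.59, 10.34 and 10.25 in DMSO and at 10.48, 10.45, 10.89, 10.17 and 10.59 after treatment. DMSO replicate 1 was the lowest array, and the difference of 0.25 was 0.08 without it. The BiP partner DNAJB11 had 0.21 and the lectin chaperone CANX 0.21, and these were 0.03 and 0.06 without DMSO replicate 1. HYOU1, a nucleotide exchange factor of BiP, had 0.10, the co-chaperones DNAJC3 and DNAJB9 had 0.07 and 0.04, and the soluble lectin CALR had 0.02.

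SDF2L1, a partner of the DNAJ co-chaperones in the ER, had the most negative difference of all 29 genes. It was at 9.13, 8.81, 8.91, 9.39 and 9.37 in DMSO and at 8.76, 8.74, 8.46, 9.23 and 9.30 after treatment. Each treated array lay below every control array of its own set, although the groups overlapped when the sets were joined. The difference was -0.22 ± 0.10 (SE, n = 5; 95% confidence interval -0.45 to 0.01, limma adjusted p = 1.00) and -0.16 without DMSO replicate 1.

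Over all 29 genes, 2 (HERPUD1 and XBP1) had every treated array above the controls of its set, against 0.814% of probe sets, and 1 (SDF2L1) had every treated array below, against 1.45%.

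Of 4 measured genes for disulfide formation, 3 had positive differences, the median was 0.06 and 0 were called. The median was 0.01 without DMSO replicate 1, and 2 were then positive. ERO1B, an oxidase that recharges the isomerases, was at 5.30, 5.0, 4.96, 5.33 and 5.24 in DMSO and at 5.37, 5.42, 5.16, 5.45 and 5.42 after treatment. The groups overlapped through treated replicate 3. Its difference was 0.20 (-0.03 to 0.42), and 0.25 (0.05 to 0.44) without DMSO replicate 1. It was a dim gene, near the lower quartiles of the arrays (5.05 to 5.44). Its relative ERO1A had -0.01, and the isomerases PDIA6 and PDIA4 had 0.09 and 0.04. The secreted, stress-induced proteins MANF and CRELD2 had 0.05 and -0.05.

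DMSO replicate 1 moved many of these genes. Among the 5 controls it was the lowest for 14 of the 29 genes and the highest for 5. Over all probe sets it was the lowest for 27.7% and the highest for 39.7%. A low DMSO replicate 1 was not particular to these genes. In the further pathway lists below it was the lowest for 18 of 27 degradation factors and 11 of 18 translocon genes. It was the lowest for 10 of 16 glycan genes, 6 of 9 oligosaccharyltransferase genes and 8 of 16 stress transducers. Prolyl isomerases gave 6 of 12 and the disulfide family 5 of 15. Levels were not matched in the comparison with all probe sets. Relative to the median of the other controls DMSO replicate 1 was at -0.92 for DERL1, -0.87 for DNAJB11, -0.80 for EDEM1 and -0.77 for EDEM2. For SYVN1 it was at 0.79. Its mean over the 29 genes was 9.17, against 9.31 to 9.35 on the other controls and 9.35 to 9.48 on the treated arrays. Without it 0 of the 29 genes were called, against 0.0136% of probe sets called higher and 0.0910% lower. HERPUD1, XBP1 and ERO1B were then higher at an unadjusted p under 0.05 (2.13% of probe sets), and 0 genes were lower (3.72%).

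**Figure D3:**
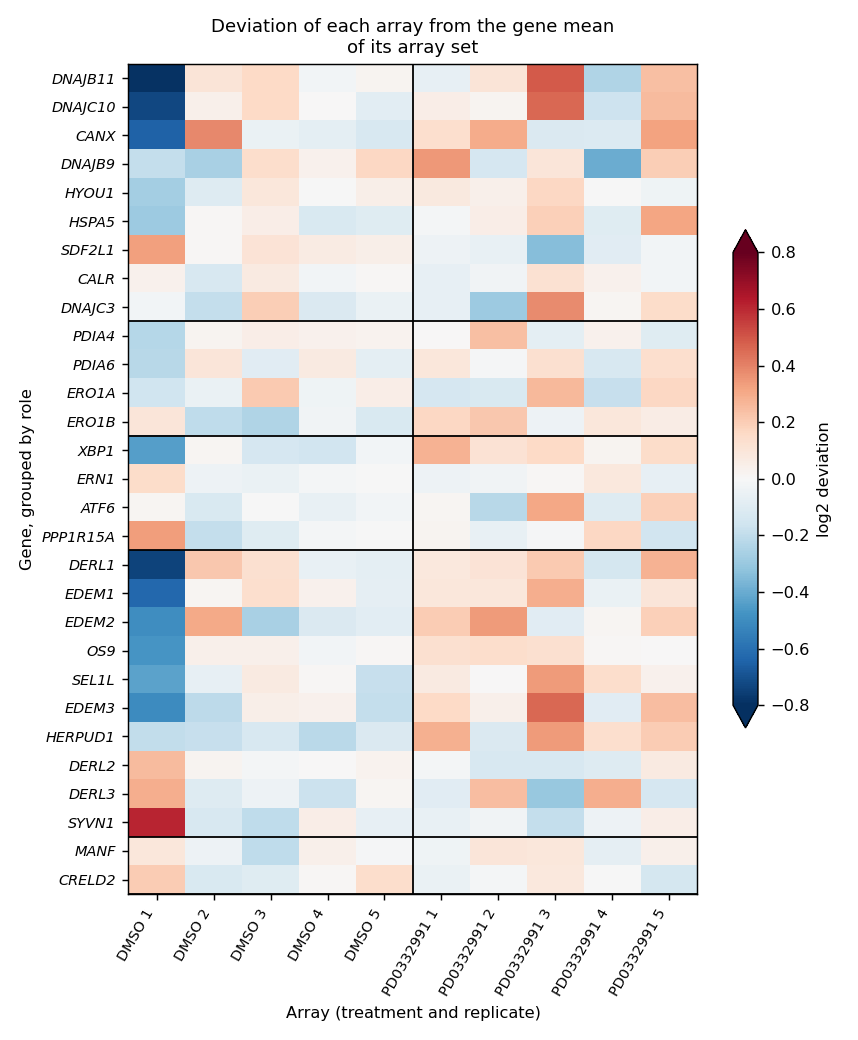
Deviation of each array from the gene's mean over its own array set, for 29 genes (rows, by role) and 10 arrays (columns), in log2 units with red above and blue below the mean. DMSO replicate 1 holds the most intense column, with deviations from -0.79 to 0.61, and treated replicate 3 reaches 0.49.

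The array sets gave the same sign for 19 of the 29 genes (65.5%), against 54.6% of all single-symbol genes. Positive differences numbered 23 in set 1 (79.3%, median 0.15), against 43.8% of all genes, and 21 in set 2 (72.4%, median 0.02), against 50.8%. HERPUD1, CANX and CALR had equal values in both sets (0.34, 0.21 and 0.02), while DNAJB9 had 0.21 in set 1 and -0.20 in set 2. The interaction of treatment and array set was called for 0 of the 29 genes and 0% of all probe sets by limma, and 0 of the 29 genes reached an unadjusted p under 0.05, against 2.56% of probe sets.

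**Figure D4:**
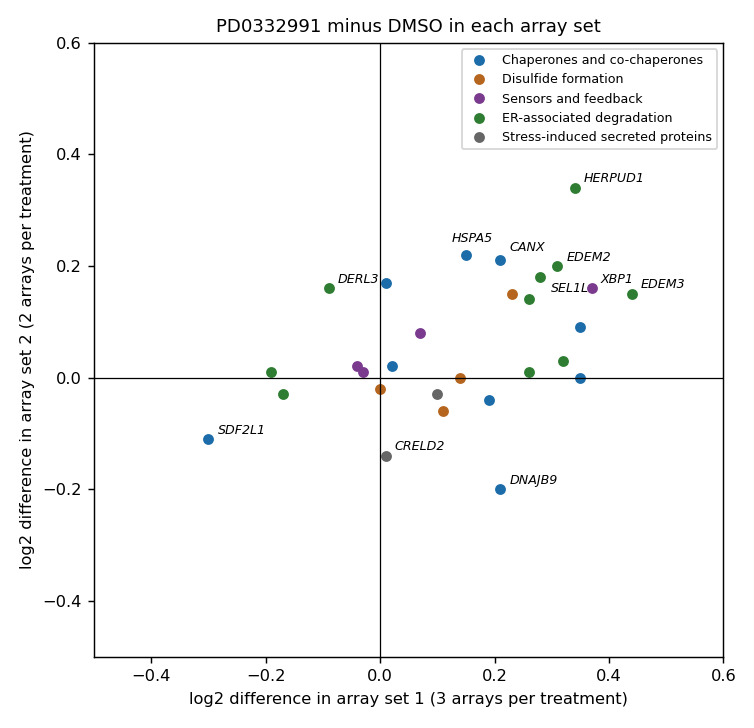
Log2 difference between PD0332991 and DMSO in array set 1 (x axis, 3 arrays per treatment) and in array set 2 (y axis, 2 arrays per treatment), 1 point per gene, coloured by role. HERPUD1 lies at 0.34 on both axes and SDF2L1 at -0.30 and -0.11.

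Some of the genes differed between the array sets. With treatment in the model, 3 of the 29 genes were called between sets, against 3.53% of all probe sets. EDEM3 was lower in set 2, with a difference of -0.63 from set 1 (means 8.06 in set 1 and 7.43 in set 2, limma adjusted p = 0.0466). SDF2L1 was higher in set 2 by 0.52 (8.80 and 9.32, limma adjusted p = 0.0299), as was DERL2 by 0.46 (9.08 and 9.54, limma adjusted p = 0.0330). After cyclic loess the call of DERL2 was lost (limma adjusted p = 0.0506), and after median centring that of EDEM3 (limma adjusted p = 0.0601). Both treatments are present in each set, so the treatment differences above are taken within sets. The labels do not say how the sets differ beyond the array names.

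Other genes of the pathway were read from 7 further lists, with 113 of 136 genes measured, and 0 were called by limma. At an unadjusted p under 0.05, 4 were higher (CHAC1, CREBRF, ERLEC1 and HERPUD2) and 0 lower, where 1.41% and 2.76% of all probe sets were. When DMSO replicate 1 was left out, CHAC1, ERLEC1 and HERPUD2 were higher at that level and TOR1A was lower (-0.18), while CREBRF at 0.26 was not past it. Stress transducers and genes of the integrated stress response, which PERK and related kinases start, had 12 positive differences of 16 and a median of 0.12. CHAC1, a glutathione-degrading enzyme induced by ATF4, was at 8.49, 7.76, 8.12, 8.18 and 8.30 in DMSO and at 8.86, 8.63, 8.33, 8.42 and 8.54 after treatment. The groups overlapped through DMSO replicate 1, and the difference was 0.39 (0.04 to 0.73, limma adjusted p = 1.00). CREBRF, a regulator of CREB3, had 0.30. The RNA of ATF4 itself had -0.19 (-0.44 to 0.05). In the same list the PERK gene EIF2AK3 had 0.26 (-0.02 to 0.54), and 0.19 without DMSO replicate 1. ASNS, DDIT3, ATF3 and TRIB3 had 0.19, 0.17, 0.15 and 0.05. Of the 16 genes, 1 (DDIT3) had every treated array above the controls of its set and 0 had every treated array below. The shares of all probe sets were 0.814% and 1.45%.

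Of the 16 genes for glycan trimming and lectins 12 were positive (median 0.10). ERLEC1, a lectin that reads trimmed glycans as OS9 does, was at 8.74, 9.14, 8.97, 8.95 and 8.75 in DMSO and at 9.34, 9.33, 9.83, 9.12 and 9.15 after treatment. Its treated arrays lay above all controls of their own sets, with only DMSO replicate 2 above treated replicate 4 when the sets were joined. The difference was 0.44, the largest among these further pathway genes apart from FKBP14 at 0.45 (limma adjusted p = 0.793 and 1.00). FKBP14 encodes a prolyl isomerase, and its difference was 0.24 without DMSO replicate 1, whereas ERLEC1 then had 0.37. CALR3, a calreticulin relative, had -0.19 at a dim level.

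Further degradation factors gave 18 positive differences of 27 (median 0.05). HERPUD2, the relative of HERPUD1, had 0.27 (0.04 to 0.50) and NGLY1, which strips glycans from retrotranslocated proteins, 0.23 (0.19 and 0.12 without DMSO replicate 1). The translocon and signal peptidase had 14 positive of 18 (median 0.12), with SEC63 at 0.24 and SEC11C at 0.38 (0.22 and 0.25 without DMSO replicate 1). Oligosaccharyltransferase subunits had 7 of 9 (median 0.12), with RPN1 at 0.13 (0.08 without that array) and DDOST at 0.11. The remaining isomerases had 9 of 15 for the disulfide family (median 0.09), with TXNDC15 at 0.17 and GPX8 at 0.23 (0.11 without that array), and 7 of 12 for prolyl isomerases and exchange factors (median 0.03), with TOR1A at -0.16.

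Without DMSO replicate 1 the medians of these 7 lists were 0.00 to 0.10. Positive differences then numbered 14 of 16 for stress transducers, 8 of 16 for glycan trimming and lectins and 14 of 27 for degradation factors. They numbered 14 of 18 for the translocon, 7 of 9 for oligosaccharyltransferase, 8 of 15 for the disulfide family and 7 of 12 for prolyl isomerases. Of all single-symbol genes 44.7% were positive with that array and 53.2% without it. Cytosolic and mitochondrial heat shock genes, listed for comparison, had 9 positive of 14, a median of 0.03 and 0 calls, with 0 also at an unadjusted p under 0.05. The chaperone HSP90AA1 was at 0.32 (0.18 without DMSO replicate 1) and the co-chaperone CHORDC1 at 0.69 (-0.12 to 1.49).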

How the data were processed

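The values are log2 expression per gene-level probe set, deposited by the authors as 1 table. Per the submitters' processing notes, Partek, RMA and hg18 were used (versions and settings unstated). RMA compresses differences of dim genes. Probe sets were named through the platform annotation, and 14432 of 21980 carried a single symbol (2408 several, 5140 none). Symbols were looked up by Entrez identifier in the RefSeq table of GRCh38.p14, which changed 0 of them; 28 had no match. No probe coordinates are given, since that build differs from hg18.

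Differences between treatments came from 2-sided moderated tests (lmFit and eBayes of limma 3.58.1, R 4.3.3) with array set as covariate, Benjamini-Hochberg adjustment over all probe sets, threshold 0.05. No filter on low values was used, so every measured member was tested. The procedure was tested on simulated data with planted differences larger than any found for the members, so recovery of differences of their size was not examined. Each gene took its brightest single-symbol probe set. The members, their roles and the further lists were chosen with earlier results of these data known. Levels on every array are given for the 12 members with the smallest p and for HSPA5, XBP1, ATF6, ERN1, HERPUD1 and PPP1R15A. From each further list the 2 genes with the smallest p are named. CCNE2, E2F2 and DDIT4 are given as examples of called genes from these same data. Further genes were named after their values were seen. Figures used Matplotlib 3.10.9 under Python 3.11.15.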

Additional observations from a re-analysis of the deposited data

Results flagged for a closer look

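In groups of 5 arrays, the highest or lowest array was compared with its nearest neighbour as a share of the group's range, for 29 genes in both treatments and for their mean (60 groups). Chance marks about 1 in 20 groups of independent values, and 8 stood apart here. The groups share arrays and array set was not removed, so this count cannot be judged against that rate. Of these, 4 lay on DMSO replicate 1: DERL1 at 9.53 (next 10.40), DNAJB11 at 9.32 (next 10.14), SYVN1 at 9.38 (next 8.64) and the mean over the 29 genes at 9.17 (next 9.31). The other 4 lay on different treated arrays. HERPUD1 was at 10.37 in replicate 2 (next 10.70), ERO1B at 5.16 in replicate 3 (next 5.37), PPP1R15A at 8.56 in replicate 4 (next 8.25) and DERL1 at 10.80 in replicate 5 (next 10.48).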

How the results depend on the processing

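Under 24 alternatives (covariates, normalization, filter, moderation, array weights, features tested, array sets alone and arrays left out) 0 of the measured genes were called in either direction, and the smallest adjusted p was 0.283, with array weights. Their median difference ran from 0.02 to 0.15, and 19 to 24 of them were positive. Of 15 genes followed singly, 13 kept their sign throughout. ERN1 was positive after cyclic loess (0.01), with array weights (0.03), in set 2 alone (0.02), without both arrays numbered 1 (0.03), after quantile normalization of the 9 other arrays (0.02, added after the data were seen) and between -0.04 and 0.02 with 1 array left out. PPP1R15A was 0.00 or above after median centring (0.00), with array weights (0.09), in set 2 alone (0.01), without both arrays numbered 1 (0.06), on the 9 arrays (0.09) and between -0.07 and 0.07 with 1 array left out. Calls between array sets numbered 5 with array weights, and 2 after cyclic loess (DERL2 lost) or median centring (EDEM3 lost). ERO1B could not be tested once the dimmest probe sets were left out, itself among them. The cause was not tested for any of these.

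Over all probe sets the count higher was 1 with the replicate block, without a covariate or after median centring, 13 with array weights, 4 on single-symbol probe sets or after quantile normalization of 9 arrays, 0 in either array set alone and 1 to 3 with 1 array left out. The count lower was 1 with the replicate block, 50 with array weights, 14 on single-symbol probe sets, 22 on 9 arrays, 0 in either set alone and 1 to 20 with 1 array left out (20 without DMSO replicate 1). Pairing by replicate number was not assumed. Deviations of same-numbered arrays from their group means correlated at 0.04 to 0.54, and 2 of 5 pairs lay under 0.1. Replicate 3 gave the 0.54, and 0.40 with array set also removed, where the other pairs gave -0.05 to 0.09. Arrays with unlike numbers were not compared, so whether the numbers pair the samples was not settled. With the replicate block 0 of the 29 genes were called.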

Other observations

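After treatment and array set were removed, the levels of the 29 genes over the 10 arrays correlated with both signs. Pearson correlations ran from -0.97 to 0.98 over the 406 pairs of these genes, and 218 pairs were positive. The median was 0.08, against 0.03 over pairs of all single-symbol genes, and the median size without regard to sign was 0.52 against 0.48. Without DMSO replicate 1 the medians were 0.07 and 0.02, and the median sizes 0.44 and 0.41. The pairs share arrays and normalization, so these values are a description.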
